A study of Mus musculus with 8 samples.

Results

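The genes described here encode the proteins that mark and license the origins of DNA replication: the 6 subunits of the origin recognition complex (Orc1, Orc2, Orc3, Orc4, Orc5 and Orc6), the loading factors Cdc6 and Cdt1, and geminin (Gmnn), the inhibitor of Cdt1. Their probe sets, each a group of short probes that reports 1 mRNA on the array, were taken by gene symbol from the array's platform annotation, which gave 19 of the 45037 probe sets that are not controls. All 9 genes were represented. One further probe set was annotated to both Orc4 and another gene and was not used. The arrays measured mRNA from polysomes, the clusters of ribosomes that form on mRNAs under translation, in mouse oocytes held at metaphase II (MII, 4 batches) and in mouse embryos at the one-cell stage (4 batches). Each batch held 160 to 500 oocytes or embryos, and the batches are independent replicates per the labels. The embryos, but not the oocytes, are labelled as exposed to α-amanitin, which blocks transcription by RNA polymerase II, so stage and treatment cannot be told apart. The labels used here name no strain, age or hour of collection.

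In dividing cells the origin recognition complex binds DNA at origins, and Cdc6 and Cdt1 then help it to load the MCM helicase around the DNA, which licenses the origin for the coming S phase. Geminin binds Cdt1 and blocks loading, and Cdt1 is destroyed in S phase by ubiquitin ligases, so that an origin fires only 1 time per cycle. The egg arrested at MII goes through no S phase between the meiotic divisions, and the first S phase of the new organism takes place in the pronuclei of the one-cell embryo. Before the embryonic genome is active, the proteins needed for it come from the egg or from translation of maternal mRNAs.

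On polysomes, the licensing genes did not change as a unit. Orc2, Orc3 and Cdc6 were higher in one-cell embryos than in MII oocytes, and Orc6 and geminin were lower. Geminin signal fell 4.47-fold in mean intensity and Orc6 signal 3.04-fold, while Orc2 signal rose 5.48-fold. Orc4 gave opposite results with different probe sets, and Orc1, Orc5 and Cdt1 did not pass the test with their brightest probe set. Counted by the brightest probe set of each gene, 3 of the 9 genes were higher and 3 lower at an adjusted p under 0.05 (limma, Benjamini-Hochberg over all probe sets tested), against 20.1% higher and 14.7% lower among all 12359 genes. Of the 17 member probe sets tested, 7 were higher and 3 lower, against a background of 19.3% and 12.8% of all 23336 tested (32.1% in either direction). Orc3, counted among these rises, passed the filter chiefly through the embryo arrays. The groups did not overlap in 9 of the 17, against 32.6% of all tested.

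Signals are intensities in arbitrary units, with the same trimmed mean on every array as deposited. They give the share of an mRNA in the polysomal pool. A lower signal in embryos thus cannot separate less of the mRNA in the cell from less of it on ribosomes. It also cannot separate a fall of that mRNA from a rise of others in the pool. The same holds for a higher signal. It cannot separate more of the mRNA in the cell, more of it on ribosomes and a fall of others in the pool. A probe set was tested if 4 or more of the 8 arrays put it above that array's median. Log2 changes subtract the oocyte mean from the embryo mean of log2(intensity + 10) and carry the limma standard error (SE), and they understate changes of dim mRNAs. One-cell array 1 differed from the rest: its median signal was 71.8, where the other 7 arrays had 26.9 to 37.9, and its 18 hybridization controls (RNAs spiked in before hybridization) had a geometric mean of 14879, where the others had 857 to 3718. It held the lowest one-cell value in 8 of the 17 member probe sets and the highest in 5. Over all probe sets tested the median change was 0.17 on the deposited scale. It was -0.12 with quantile normalization and -0.15 after median centring of each array. Of the calls in these settings, 60.2%, 48.6% and 50.7% were higher. All 11 oocyte markers lay above the array median on each array. Their summed signal was 77494 to 107185 on MII arrays and 55294 to 91916 on one-cell arrays. The 12 markers of cumulus and granulosa cells, which surround the egg, summed to 520 to 646 and to 404 to 1487. Of these, 4 to 8 lay above the array median on MII arrays and 5 to 7 on one-cell arrays. Inha and Foxl2 did so on every array and Amh on none. The 7 sperm markers summed to 153 to 244 and to 170 to 454. Of these, 2 to 3 lay above the array median on MII arrays and 2 on one-cell arrays. Odf1 did so on 3 arrays of each group, and Tnp1, Tnp2 and Smcp on none. Of these 2 lists, Cyp11a1 and Prm2 were called higher, each above the array median on 2 MII and 4 one-cell arrays. Akap4 was called lower, above the median on 4 MII and 0 one-cell arrays. Akap4 was thus tested only through the group where it is brighter, and Cyp11a1 and Prm2 chiefly so. The part of these cells in the results was not tested.

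**Figure D1:**
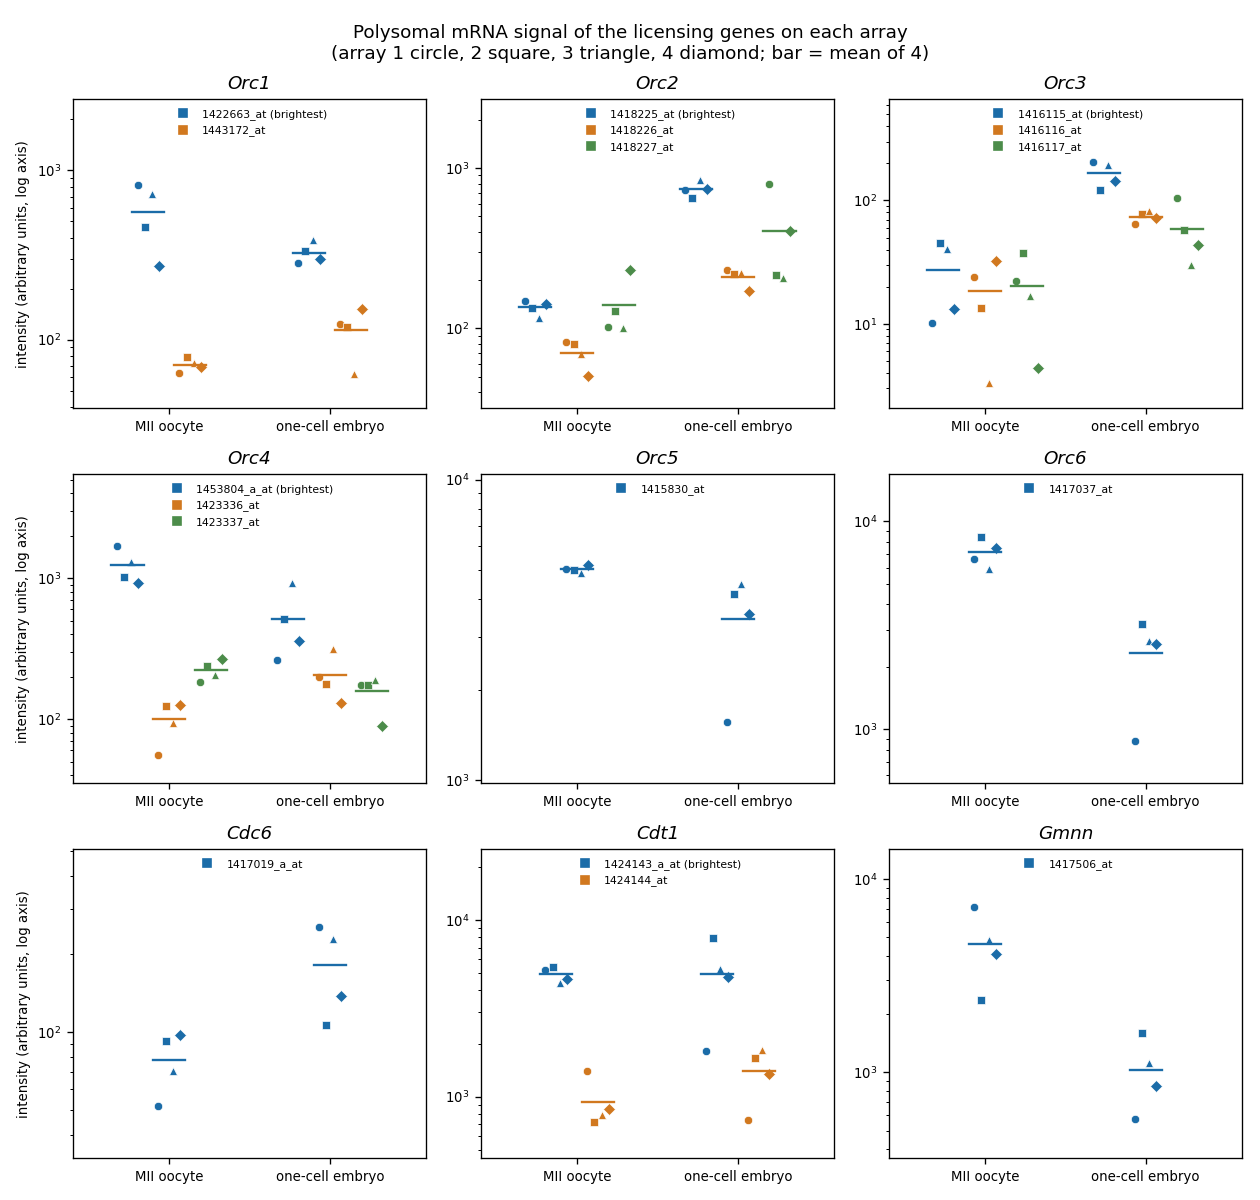
Intensity (arbitrary units, log axis) of each tested probe set of the 9 genes on each of the 8 arrays; symbols mark the array number, colours the probe set, and bars the mean of 4 arrays. Orc2 rises with each probe set and Orc6 and Gmnn lie lower on every one-cell array, while the probe sets of Orc4 move in different directions.

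In somatic cells, licensing genes are known targets of E2F transcription factors, which bind the letters TTTCCCGC, TTTCGCGC, TTTGCCGC or TTTGGCGC. RefSeq promoter windows on GRCm38.p6 (250 bases before to 50 after a start site) were held for 8 of the 9 genes, in 11 windows; Gmnn has no entry. A search of both strands for the 4 forms found a match for 4 genes: Orc1, Orc3, Cdc6 and Cdt1, the last at 32 to 39 bases after its start site. Of all 32851 windows, 2.26% hold at least 1 form, a window with overlapping or repeated matches counting as 1. This share counts windows, whereas the 4 matches count genes, and a gene with several windows has more chances of a match. The 2 are thus not like measures, and the share of all genes with a match was not counted. The stretches of 150 bases just before the start site are shown for the 3 genes with a match there. They lie at chr4:108579304-108579453 (+ strand, Orc1), chr4:34614943-34615092 (- strand, Orc3) and chr11:98908001-98908150 (+ strand, Cdc6), with the match in capitals. A match describes the letters and is not a measured site, and no transcription was measured in these arrays. Any link between a match and the change in polysomal signal was not tested.
Orc1: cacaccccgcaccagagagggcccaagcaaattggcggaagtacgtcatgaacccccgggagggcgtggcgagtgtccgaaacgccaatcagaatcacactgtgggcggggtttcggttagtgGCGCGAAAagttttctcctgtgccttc
Orc3: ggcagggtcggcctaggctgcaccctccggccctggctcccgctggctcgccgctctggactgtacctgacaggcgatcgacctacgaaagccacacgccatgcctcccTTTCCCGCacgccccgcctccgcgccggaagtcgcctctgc
Cdc6: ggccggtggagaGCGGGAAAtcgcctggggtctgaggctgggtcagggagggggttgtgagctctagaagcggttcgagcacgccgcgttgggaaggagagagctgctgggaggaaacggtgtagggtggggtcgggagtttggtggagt
The match lies 27 to 20 bases before the start site in Orc1, 41 to 34 in Orc3 and 138 to 131 in Cdc6. Orc2, Orc4, Orc5 and Orc6 have no match in their windows.

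Orc1 is the largest subunit of the complex and an ATPase that in dividing cells comes and goes with the cycle. Its brighter probe set (1422663_at) read 821.5, 465.7, 724.8 and 270.5 on MII arrays 1 to 4 and 283.0, 333.4, 386.0 and 300.1 on one-cell arrays 1 to 4. The groups overlapped, because MII array 4 lay below all one-cell arrays. The change of -0.68 ± 0.33 did not pass (adjusted p = 0.137, 95% interval -1.38 to 0.02), but without MII array 4 it was -0.99 ± 0.32 and passed (adjusted p = 0.027). The dimmer probe set (1443172_at) read 63.2 to 79.3 in oocytes and 62.9 to 150.9 in embryos, a change of 0.56 ± 0.33 that did not pass either (adjusted p = 0.22).

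Orc2 forms the core of the complex together with Orc3, to which it binds directly. Its brightest probe set (1418225_at) read 148.5, 133.8, 116.2 and 141.2 in oocytes and 727.9, 651.3, 838.0 and 740.4 in embryos. All 4 embryo arrays lay above all oocyte arrays. Relative to the mean the spread was alike, with an SD of 10.3% of the mean in oocytes and 10.4% in embryos. The mean rose from 135 ± 13.9 (SD, n = 4) to 739 ± 76.6, a log2 change of 2.37 ± 0.26 (adjusted p = 4.27e-06). The other probe sets rose too, 1418226_at from 70.6 ± 14.4 to 210 ± 27.0 (1.46 ± 0.29, adjusted p = 0.00106) and 1418227_at from 140 ± 61.4 to 406 ± 278 (1.33 ± 0.41, adjusted p = 0.0189). The last had overlapping groups and a value of 798.3 on one-cell array 1 against 205.3 to 407.0 on the others. Its call was lost in 7 of 19 alternative settings, among them quantile normalization (1.09 ± 0.50, adjusted p = 0.126), centring (1.01), the hybridization controls as a covariate (0.50), and the comparison without one-cell arrays 1 and 4 (0.62), MII array 1 (1.21), MII array 3 (1.21) or one-cell array 4 (1.25). The first and second probe sets kept theirs in all 19, between 2.05 and 2.45 and between 1.01 and 1.57.

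Orc3 was dim in oocytes. Its brightest probe set (1416115_at) read 10.1, 45.6, 40.6 and 13.1 on the MII arrays and 206.9, 121.4, 194.0 and 143.3 on the one-cell arrays. Every embryo array lay above every oocyte array, and only 2 of the 4 MII arrays put the gene above the array median, so the oocyte level and the fold are poorly set. The log2 change was 2.35 ± 0.40 (adjusted p = 0.000286), 1.77 with an offset of 32 and 2.80 with an offset of 1. The second probe set (1416116_at) read 3.3 to 32.3 in oocytes and 64.4 to 81.8 in embryos (1.69 ± 0.45, adjusted p = 0.00767), and the third (1416117_at) changed by 1.20 ± 0.50 without passing (adjusted p = 0.0783). These 2 lay above the median on 1 MII array each and entered the test through the embryo arrays, where they are brighter, so the filter itself favours a rise.

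Orc4, another ATPase of the complex, has 4 probe sets of its own, and they disagreed. The brightest (1453804_a_at, where the suffix marks probes shared by several transcripts of 1 gene) read 1705.9, 1021.1, 1293.5 and 930.0 in oocytes and 262.2, 511.0, 930.1 and 358.5 in embryos. The groups touched at 1 point, one-cell array 3 against MII array 4. The mean fell from 1238 ± 348 (SD, n = 4) to 515 ± 295 (-1.37 ± 0.36, adjusted p = 0.00766). Its call was lost when the controls entered the fit as a covariate (-0.64 ± 0.30, adjusted p = 0.14) and without one-cell arrays 1 and 4 (-0.79 ± 0.34, adjusted p = 0.0987).

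A second Orc4 probe set (1423336_at) went the other way. It read 56.1, 124.2, 93.6 and 126.0 in oocytes and 198.5, 178.6, 314.5 and 130.0 in embryos, with no overlap but a narrow gap between 126.0 and 130.0. The rise of 0.96 ± 0.34 passed narrowly (adjusted p = 0.041). Over 19 alternative settings it ran from 0.45 (quantile normalization) to 1.23 (without one-cell arrays 1 and 4, where it passed). It did not pass in 9 of the 19. Among them were the comparisons without MII array 1 (0.73), MII array 3 (0.95), one-cell array 2 (1.00) or one-cell array 3 (0.74), and the replicate number as a block (adjusted p = 0.0593). The third (1423337_at) read 182.9 to 267.3 in oocytes and 89.0 to 189.6 in embryos (-0.52 ± 0.30, adjusted p = 0.217). It passed as lower after quantile normalization (-0.98, adjusted p = 0.025) and was -0.29 without one-cell array 4, its lowest. The fourth (1431172_at) rose above no array's median, at 2.1 to 34.3, and was not tested. Averaged over the 3 tested probe sets, Orc4 changed by -0.31 ± 0.26 (adjusted p = 0.4), and no direction can be given for the gene.

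Whether probe sets of 1 gene changed unequally was tested for 11 pairs by a two-sided exact permutation test over arrays of the within-array difference. The brightest Orc4 probe set changed by 2.33 less on the log2 scale than the second, and the third by 1.48 less than the second. Both reached exact p = 0.0286, the lowest value possible for 4 against 4, which became 0.0786 when adjusted over the 11 pairs (Benjamini-Hochberg). One pair of Orc2 (0.91 more for the brightest) and 1 of Orc3 (1.15 more) had the same values. After adjustment 0 of the 11 pairs passed, and 4 had an unadjusted p under 0.05.

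Orc5, an ATPase-family subunit like Orc1 and Orc4, was measured by 1 probe set (1415830_at). It read 5043.0, 5002.2, 4886.6 and 5206.5 in oocytes, the tightest group among the members, and 1560.2, 4160.9, 4488.5 and 3570.5 in embryos. All embryo arrays lay below all oocyte arrays, but they spread widely because of one-cell array 1. The change of -0.65 ± 0.36 did not pass (adjusted p = 0.195, 95% interval -1.42 to 0.11), and without that array it was -0.31 ± 0.23 (adjusted p = 0.339).

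Orc6 is the smallest subunit and the least like the others. Its probe set (1417037_at) read 6616.5, 8425.2, 5929.8 and 7415.4 in oocytes and 880.6, 3223.6, 2658.0 and 2587.4 in embryos. The groups were well apart, and the value on one-cell array 1 was the lowest of all. The mean fell from 7097 ± 1074 (SD, n = 4) to 2337 ± 1012, a log2 change of -1.74 ± 0.39 (adjusted p = 0.00278). Without one-cell array 1 the change was smaller and the SE narrower (-1.32 ± 0.24, adjusted p = 0.000631). With control signal as a covariate it was -1.14 (adjusted p = 0.0389), more than 1.5 times smaller, and the call held in all 19 settings.

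**Figure D2:**
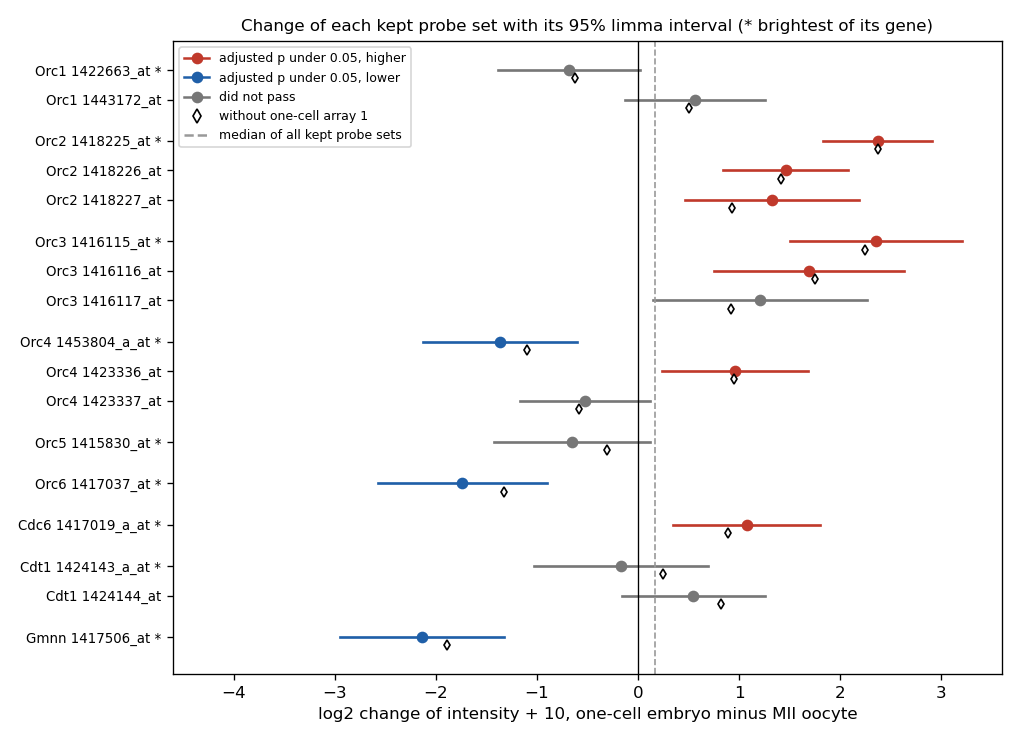
Log2 change (one-cell embryo minus MII oocyte, on intensity + 10) of the 17 tested probe sets with its 95% limma interval; filled points are coloured by call, open diamonds give the change without one-cell array 1, and the dashed line is the median of all tested probe sets (0.17). Orc2 and Orc3 lie right of the line with all their probe sets, Orc6 and Gmnn left of it, and the diamond of the brightest Cdt1 probe set lies on the other side of 0 from its point.

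Cdc6 is the ATPase that joins the origin recognition complex and recruits Cdt1 with the MCM helicase. Its probe set (1417019_a_at) read 52.0, 92.8, 71.0 and 97.6 in oocytes and 254.5, 106.9, 228.8 and 138.2 in embryos. The lowest embryo array lay just above the highest oocyte array, so the groups did not overlap. The mean rose from 78.4 ± 21.0 (SD, n = 4) to 182 ± 70.7, a log2 change of 1.08 ± 0.34 (adjusted p = 0.0234). The call is not robust: it was lost in 7 of 19 alternative settings, including quantile normalization (0.65, adjusted p = 0.138), centring (0.76, adjusted p = 0.106) and the comparison without MII array 1 (0.92), MII array 3 (1.04) or one-cell array 3 (0.94). Its direction was positive in all of them.

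Cdt1, which brings the MCM helicase to the origin, was bright in both groups. Its brightest probe set (1424143_a_at) read 5233.1, 5468.9, 4398.7 and 4653.3 in oocytes and 1819.5, 7901.0, 5319.8 and 4774.8 in embryos. The embryo arrays lay on both sides of the oocyte arrays, and the means, 4939 ± 497 and 4954 ± 2495 (SD, n = 4), were close. The change of -0.17 ± 0.41 did not pass (adjusted p = 0.807), with a 95% interval of -1.03 to 0.69 that includes sizeable changes both ways. Its sign turned after quantile normalization and without one-cell array 1 (0.25 ± 0.25, adjusted p = 0.501).

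The second Cdt1 probe set (1424144_at) read 1388.8, 713.8, 782.5 and 846.2 in oocytes and 739.3, 1644.5, 1838.3 and 1351.3 in embryos. With one-cell array 1 it did not pass (0.55 ± 0.33, adjusted p = 0.245). Without that array it was higher by 0.82 ± 0.28 (adjusted p = 0.0323), and it also passed with array weights, without one-cell arrays 1 and 4, and with control signal as a covariate. The remaining probe set (1455791_at) exceeded the median of no array, at 0.9 to 13.8, and was not tested.

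Geminin, the inhibitor that keeps Cdt1 from reloading origins and is destroyed at the exit from mitosis, was lower in embryos. Its probe set (1417506_at) read 7149.9, 2386.3, 4875.0 and 4094.7 in oocytes and 574.9, 1600.1, 1121.8 and 846.6 in embryos. All embryo arrays lay below all oocyte arrays, although the oocyte arrays themselves were widely spread. The mean fell from 4626 ± 1977 (SD, n = 4) to 1036 ± 437, a log2 change of -2.14 ± 0.38 (adjusted p = 0.000435). The fall passed in all 19 alternative settings, between -2.46 and -1.63. Without one-cell array 1, the lowest, it was -1.89 ± 0.34 (adjusted p = 0.000591).

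The rest of the replication pathway was read from 4 lists, each gene by its brightest tested probe set. Over all 12359 genes, 20.1% were higher and 14.7% lower, and the list counts were not tested against these shares. In the MCM helicase with its binding protein Mcmbp, 1 of 7 genes was higher and 1 lower, with a list median of -0.36 against 0.16 over all genes. Mcm5, a helicase subunit, rose from 671 ± 276 to 3661 ± 2525 (SD, n = 4; 2.31 ± 0.40, adjusted p = 0.000303, by a probe set whose name marks probes that can also match other transcripts). Mcm2 fell from 4757 ± 1367 to 1858 ± 1073 (-1.52 ± 0.43, adjusted p = 0.011), a call lost with control signal as a covariate (-1.04, adjusted p = 0.126). Among 14 genes of origin firing, the step in which kinases and loading factors activate the licensed helicase, 6 were higher and 4 lower (median -0.33). The smallest p-values belonged to Gins4, a subunit of the active helicase (2.79 ± 0.32, adjusted p = 7.49e-06), and to the firing factor Topbp1 (3.25 ± 0.41, adjusted p = 1.84e-05), and both held in all 19 settings. Topbp1 was dim in oocytes (40.9 ± 12.1, SD, n = 4), above the array median on 3 MII arrays, so its fold is poorly set. Recql4, another of the 6 rises, lay above the array median on 2 MII and 4 one-cell arrays. It was thus tested chiefly through the group where it is brighter. The medians of the MCM and firing lists turned positive after quantile normalization (0.04 and 0.06), so neither list has a settled direction.

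Of 17 measured genes that control licensing, 4 were higher and 7 lower, with a median of -0.80 (-0.72 after quantile normalization, where 4 were higher and 6 lower, and -0.47 without one-cell array 1, with 4 and 7). Gmnc and Mcidas, relatives of geminin, were on the list of 19, but no probe set was annotated to either symbol alone. The mitotic kinase Cdk1 led the rises, from 68.2 ± 15.3 to 773 ± 358 (SD, n = 4; 3.19 ± 0.37, adjusted p = 7.22e-06). Also higher were Skp1, given below, Cdk2 (1.44 ± 0.29) and Fzr1 (2.14 ± 0.38). Fzr1 lay above the array median on 1 MII and 4 one-cell arrays, so it was tested chiefly through the group where it is brighter. Cul4a, a scaffold of the ubiquitin ligase that destroys Cdt1 in S phase, had the smallest p among the falls (-2.02 ± 0.35, adjusted p = 0.000335). Other genes of the ligases that act on Cdt1, and Pcna, are given here after their values were seen, with no test of them as a group. Lower were the scaffold Cul4b (-1.61 ± 0.40), the adaptor Ddb1 (-1.44 ± 0.43), the substrate receptor Dtl (-1.15 ± 0.33), the sliding clamp Pcna (-2.11 ± 0.50) and Skp2, the receptor of a second ligase (-1.13 ± 0.29). Cul4a and Skp2 kept their calls in all 19 settings. Pcna and Cul4b lost theirs with the hybridization controls as a covariate (-1.02 and -0.93), Dtl in 3 settings, among them -0.60 without one-cell arrays 1 and 4, and Ddb1 in 6. For Ddb1 these included quantile normalization (-1.16) and the comparisons without one-cell arrays 1 and 4 (-0.88), MII array 1 (-1.15) or one-cell array 4 (-1.37). Of the 3 other tested probe sets of Dtl, 1 was called higher and 0 lower. The 1 other tested probe set of Cul4b was not called, and 3 of the 4 others of Skp2 were called lower. Skp1, the adaptor that joins Skp2 to its ligase, was called higher (1.10 ± 0.37, adjusted p = 0.0293), a call lost in 8 settings, among them the control covariate (0.56) and the comparisons without MII array 1 (0.96), MII array 2 (1.06), MII array 3 (1.17) or one-cell array 4 (1.15). The ligase scaffold Cul1 (-1.10 ± 0.46, adjusted p = 0.078) and the RING subunit Rbx1 (0.45 ± 0.49, adjusted p = 0.544) did not pass. Rbx1 was dim in both groups, with means of 40.7 in oocytes and 53.5 in embryos.

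Among 8 chromatin partners of the complex, 1 was higher and 2 lower (median 0.45). The higher gene was Brpf3, a scaffold of the histone acetyltransferase Kat7 (2.27 ± 0.46, adjusted p = 0.00123). The lower ones were Phip, which takes part in replication at origins (-1.68 ± 0.37, adjusted p = 0.00239), and Rif1, a regulator of replication timing (-1.16 ± 0.38, adjusted p = 0.0286). The call of Rif1 was lost in 8 settings, among them the control covariate (-0.40, adjusted p = 0.398), quantile normalization (-0.79), and the comparisons without one-cell arrays 1 and 4 (-0.59), MII array 3 (-1.04), MII array 4 (-1.18) or one-cell array 4 (-1.21). Without one-cell array 1, 2 of the 7 partners then tested were higher and 2 lower, and after quantile normalization 1 was higher and 1 lower.

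**Figure D3:**
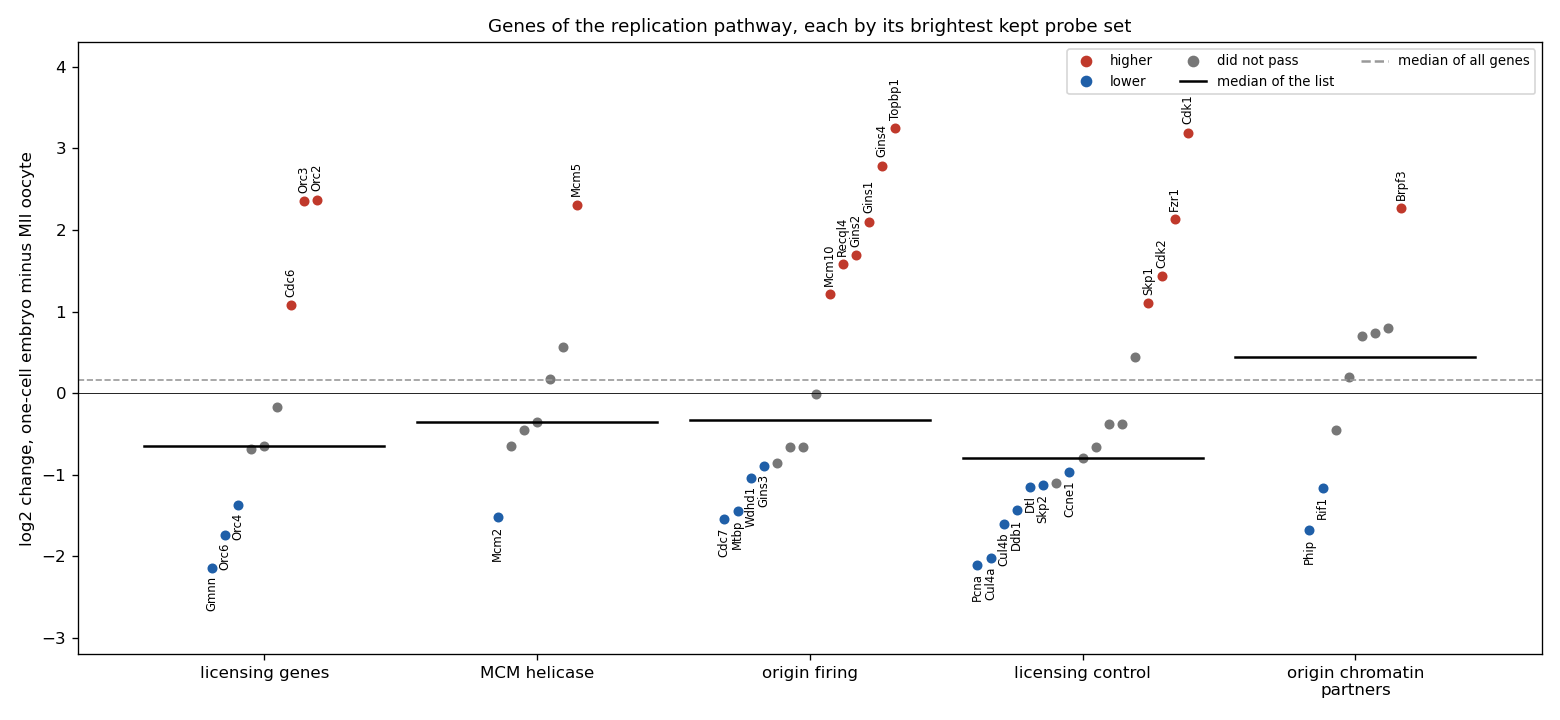
Log2 change (one-cell embryo minus MII oocyte) of each gene of the 9 licensing genes and the 4 pathway lists, by its brightest tested probe set; red and blue points passed the test as higher or lower, black bars are list medians and the dashed line is the median of all genes (0.16). Each list holds rises and falls, and the licensing control list has the lowest median (-0.80).

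The genes whose signal followed each member most closely over the 8 arrays were found by Pearson's r of log2(intensity + 10) among 11574 other genes, as a description. With 8 arrays in 2 groups such values are high for many genes, and the arrays share their scaling. Orc2 ran closest to Bcar3 (r = 0.999) and Brd9 (0.998), and Orc3 to Get4 (0.983) and Mdh2 (0.979). Cdc6 ran closest to Entr1 (0.974) and Ccm2 (0.973). Among the members that were lower, Gmnn ran closest to Oaz2 (0.996) and Slc5a12 (0.993). Orc6 ran closest to Grm2 (0.995) and Cryl1 (0.994), and the brightest Orc4 probe set to Sf3a3 (0.988) and Ddx5 (0.982). Among the members that did not pass, Orc5 ran closest to Dbi (0.994) and Map3k7 (0.993), Cdt1 to Tbp (0.985) and Pecr (0.978), and Orc1 to Gpcpd1 (0.955) and Sptlc1 (0.940).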

How the data were processed

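Polysomal RNA of 8 batches was amplified by 2 rounds of in vitro transcription and labelled with biotin, per the labels, so each array has 1 colour. Each array's deposited column holds linear intensities by probe set; their software and scaling method: not given in the sources used here. The mean after trimming 2% at each end was 150.0 on every array, so values were kept as deposited. The table holds 45101 probe sets, 64 of them controls that were left out of tests. Symbols came from GEO's platform annotation, updated through RefSeq gene numbers. An offset of 10 was added before log2. Probe sets above their array's median on at least 4 arrays (23336) entered limma 3.58.1 (R 4.3.3; lmFit, then eBayes with trend; two-sided p, adjusted by Benjamini-Hochberg over all of them, threshold 0.05). The brightest kept probe set stood for its gene. The procedure was tested on simulated data. The members, lists, tests and alternatives were chosen with earlier results of these data known. Named genes were all 9 members, the 2 smallest p-values of each pathway list, all called genes of lists with under 5, and the 2 closest genes to each member; other genes were chosen after their values were seen. Alternatives covered normalization, offset, filter, variance model, array weights, a replicate block, a control covariate, arrays left out, and the mean over probe sets.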

Additional observations from a re-analysis of the deposited data

Results flagged for a closer look

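In 34 groups of 4 arrays (17 probe sets in each stage), 2 held an array whose gap to its nearest neighbour exceeded the Dixon limit on the log2 scale, and chance gives about 1 in 20. The Orc6 signal of one-cell array 1 was 880.6, below the 2587.4 to 3223.6 of its group. The signal of the Orc4 probe set 1423337_at on one-cell array 4 was 89.0 against 173.9 to 189.6.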

How the results depend on the processing

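The counts of member genes called higher (2 to 3) and lower (2 to 4), of member probe sets called (7 to 11) and of all probe sets called (5041 to 8597) stayed within 1.5 times their values in each alternative run. Of 314 recomputed changes of member probe sets, 277 kept their direction and side of the threshold, 25 lost and 7 gained a call, and 5 changed sign. Those 5 belong to the brightest Cdt1 probe set, which was never called. Its change was 0.36 after quantile normalization, 0.25 with array weights, 0.40 without one-cell arrays 1 and 4, and 0.46 with the controls as a covariate, and it ran from -0.45 to 0.25 with 1 array left out; the cause was not tested. Gmnn, Orc6, the brightest probe sets of Orc2 and Orc3, and 1418226_at of Orc2 were called in all 19 settings.

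Same-numbered arrays of the stages did not deviate together (correlations from -0.16 to 0.14). These values gave no sign of pairing by number but cannot exclude it, since paired batches need not deviate together. With the replicate block, 7209 probe sets and 9 member probe sets were called. With 7 arrays the exact test of probe set pairs cannot go below 0.0571, so only the values were recomputed, and none of the 88 moved by more than the spread between arrays. The number of arrays limits precision, and members near the array median, Orc3 above all, have poorly set folds.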
